A study of Drosophila melanogaster with 2 samples.

Results

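The genes that make, trim and bind chitin were examined in 2 RNA-seq libraries of Drosophila melanogaster. They were taken by FlyBase symbol: the Cht, Idgf, obst-, Cda and Peritrophin families, together with kkv, Chs2, mmy, serp, verm and Gasp. The rule found 36 of the 14001 genes measured. It matched names, not levels, but was chosen with earlier results of these data known. Both libraries came from larvae of the third instar with the genotype HP1c f04929/HP1c f04929, grown at one temperature on Jazzmix food. HP1c encodes a chromodomain protein of the heterochromatin protein 1 family, and these larvae carry the allele on both homologues. The series speaks of a pair of genotypes, but the other was not analysed here, so no effect of the allele on any chitin gene was computed. The labels call the libraries replicates 1 and 2. Nothing in them ties the pair to separate cultures or animals, and their spread may be technical in part.

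Chitin is a polymer of N-acetylglucosamine that stiffens the cuticle of the body wall and trachea and forms the peritrophic matrix, the sleeve that lines the midgut. Sugar is fed into the polymer as UDP-N-acetylglucosamine by a chitin synthase in the cell membrane, and the new fibres are then partly deacetylated, bound by proteins with chitin-binding domains, and digested by chitinases before each moult. In the fly, kkv is the synthase of the epidermis and trachea, and peritrophins are named for the gut lining. Levels in bulk larval RNA cannot tell fewer cells of a type from less RNA per cell.

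Replicate 1 held 39745145 and replicate 2 held 45177298 estimated reads. Levels are given in TPM, a relative abundance corrected for transcript length, so that genes can be compared within a library. Detection means at least 1 TPM in each library, which 10900 of all genes (77.9%) reached. Entries annotated as rRNA took 12.1% of the reads in replicate 1 and 2.55% in replicate 2. Taken alone, this lowers every other TPM of replicate 1. The salivary gland genes listed below held 4.71% of TPM in replicate 1 and 9.36% in replicate 2, which acts the other way. HP1c itself was low, with 25 reads (0.842 TPM) in replicate 1 and 42 reads (1.08 TPM) in replicate 2. Ratios between the libraries are replicate 1 over replicate 2, from reads scaled by TMM (a scaling that sets the bulk of genes equal), with exact 95% intervals that cover counting error only. They measure the spread inside the mutant group and compare no conditions.

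Larvae of this genotype expressed nearly the whole chitin set, but at levels that spanned 4 orders of magnitude. Of the 36 genes, 35 (97.2%) were detected, and 28 lay above the median of all detected genes, 13.1 TPM. Peritrophin-15a was the most abundant at 2304 ± 486 TPM (SD, n = 2), and Cht8, at 0.189 ± 0.0825 TPM, was the one gene not detected. Summed over the 36, the set held 0.455% of all TPM for replicate 1 and 0.506% for replicate 2. The Peritrophin-15 genes alone made up 57.8% and 65.4% of these sums.

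**Figure D1:**
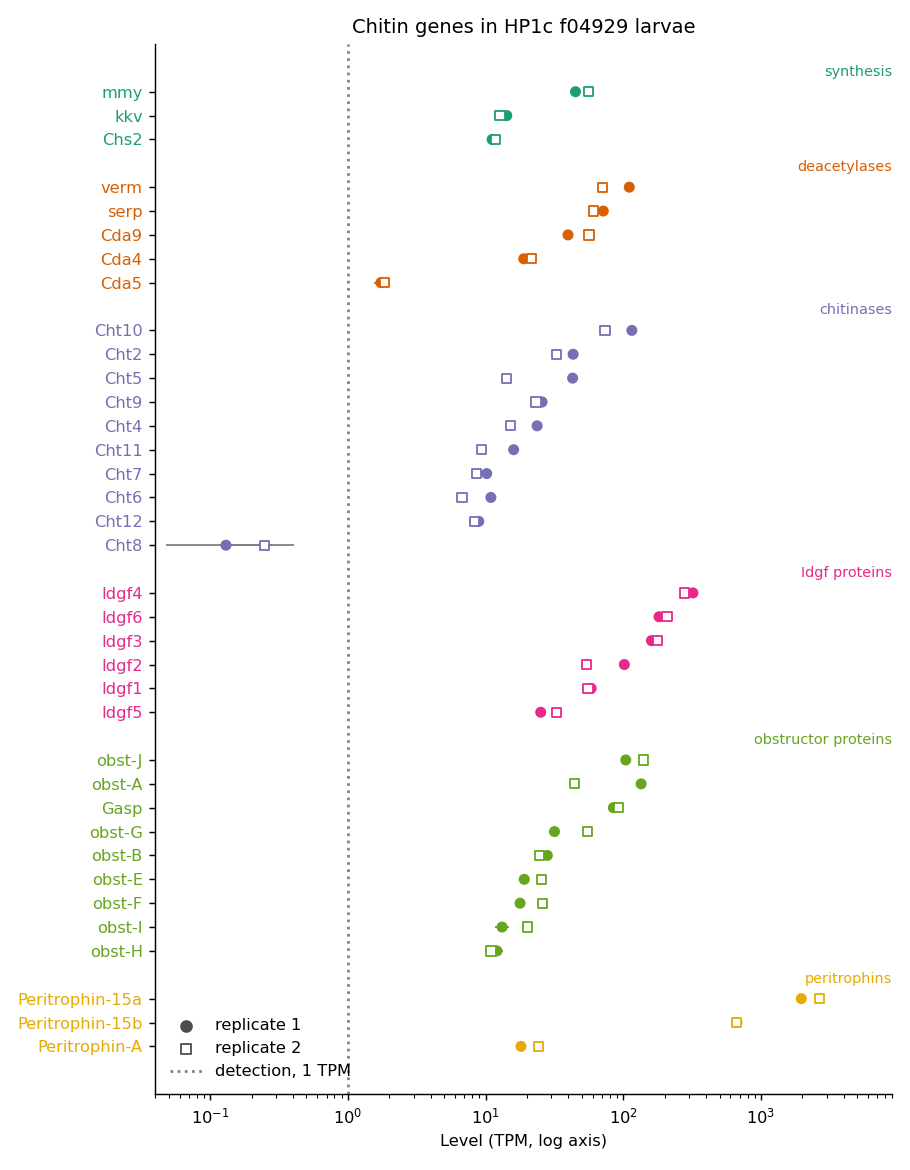
Level of each chitin gene in TPM (log axis) in replicate 1 (filled circles) and replicate 2 (open squares), grouped by role, with exact 95% Poisson intervals for counting error, mostly narrower than the symbols. Peritrophin-15a and Peritrophin-15b stand above all others, and Cht8 alone lies left of the dotted line at 1 TPM.

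By role, the peritrophins held 2991 ± 486 TPM, the Idgf proteins 827 ± 28.6 TPM and the obstructor proteins 442 ± 4.91 TPM. The chitinases held 245 ± 74.0 TPM and the deacetylases 227 ± 22.1 TPM. The synthesis enzymes together held 75.4 ± 7.13 TPM, the lowest sum of the 6 roles. The sums of the chitinases differed most between the libraries in relative terms, at 297 TPM in replicate 1 and 192 TPM in replicate 2.

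**Figure D2:**
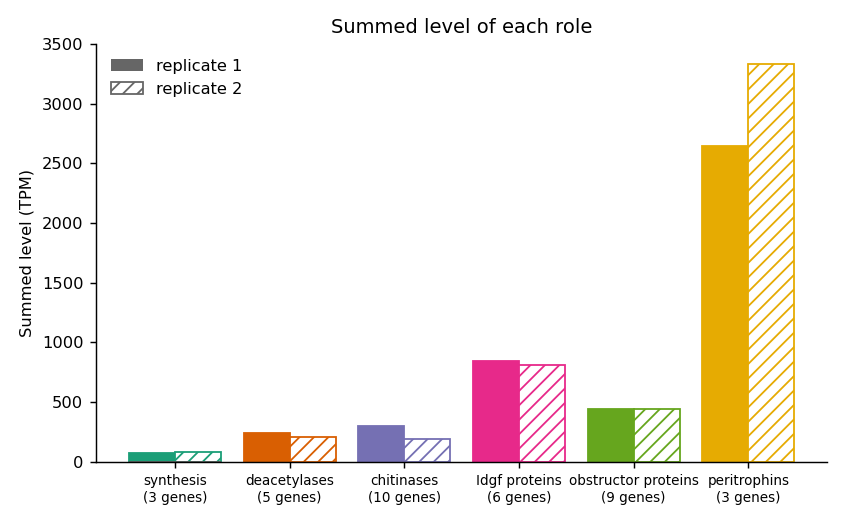
Summed level in TPM (linear axis from 0) of the genes of each role in replicate 1 (solid bars) and replicate 2 (hatched bars). The 3 peritrophins reach 2648 and 3334 TPM, while the 3 synthesis genes reach 70.4 and 80.5 TPM.

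Both chitin synthase genes were expressed at similar, modest levels. kkv (krotzkopf verkehrt, 3R, 5378093 to 5392866 of BDGP6, minus strand), the synthase of the cuticle, stood at 14.3 TPM in replicate 1 and 12.7 TPM in replicate 2. Chs2 (3L, 21962401 to 21969964, plus strand), the other chitin synthase of the fly, stood at 11.2 and 11.9 TPM. Within each library kkv lay above Chs2, but the gap was small, and the means were 13.5 ± 1.07 TPM for kkv and 11.5 ± 0.495 TPM for Chs2. mmy (mummy), the enzyme that makes UDP-N-acetylglucosamine, was more abundant than either, at 45.0 and 55.9 TPM in replicates 1 and 2 (50.4 ± 7.71 TPM). mmy serves protein glycosylation as well as chitin. All 3 genes had log2 ratios between -0.35 and 0.13.

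kkv was read as 2 coding forms whose estimated shares hardly moved between the libraries. The gene has a pair of alternative coding exons of equal length, 177 bases each, at 3R 5380354 to 5380530 and 3R 5380645 to 5380821. Transcript kkv-RD, with the first of these positions, took 23.7% of the kkv TPM in replicate 1 and 23.4% in replicate 2. kkv-RC, with the second, took 76.3% and 76.6%, and kkv-RA, which shares that exon, was listed at 0 reads in both libraries. In mmy, the longer coding form mmy-RA took 61.8% and 65.4% in replicates 1 and 2, and the shorter form of mmy-RB and mmy-RD took the rest. Chs2 was mostly Chs2-RC, at 91.2% and 88.1%, which differs from Chs2-RD by 3 coding bases. Such shares are estimates that divide reads among overlapping transcripts, and the counting intervals do not cover that step.

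Among the deacetylases, which remove acetyl groups from chitin, verm and serp were the most abundant. vermiform (verm) and serpentine (serp) are secreted enzymes known for limiting the length of tracheal tubes, and they lie side by side on 3L (19690033 to 19695260 and 19700977 to 19708015, both minus strand) with 5716 bases between them. verm stood at 111 TPM in replicate 1 and 70.7 TPM in replicate 2, a ratio of 1.55 (95% interval 1.497 to 1.60). serp stood at 71.6 and 60.9 TPM, a ratio of 1.15 (1.11 to 1.20). With TMM scaling both neighbours were thus higher in replicate 1, verm by more. Scaling by library size alone moved the median of all genes by -0.19 and leaves little of the serp difference (log2 ratio 0.21). Cda9 came next with 39.7 and 56.3 TPM in replicates 1 and 2, and it had the lowest ratio of the 5 at 0.692 (0.651 to 0.735). Cda4 followed at 20.2 ± 1.77 TPM. Cda5 was near the bottom of the set at 1.74 and 1.86 TPM, from 335 and 457 reads spread over 8 annotated transcripts.

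The forms of verm were divided differently in the 2 libraries. verm-RG, which uses a coding exon of 113 bases (3L, 19692265 to 19692377), was the main form at 65.0% of the verm TPM in replicate 1 and 69.0% in replicate 2. verm-RH and verm-RI share in its place an exon of 131 bases (3L, 19692721 to 19692851), and together took 35.0% and 31.0%. These differ from each other by one coding exon of 72 bases (3L, 19693500 to 19693571), present in verm-RI. verm-RI had 2399 estimated reads in replicate 1 and 247 in replicate 2, whereas verm-RH had 467 and 1848. The estimated split between the first pair of exons was therefore alike in the 2 libraries. The estimated share of verm-RI, the form with the 72-base exon, stood at 29.1% and 3.54%. As for kkv, such shares divide reads among overlapping transcripts, and the counting intervals do not cover that step. serp was almost all serp-RC, at 95.2% and 97.7%.

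**Figure D3:**
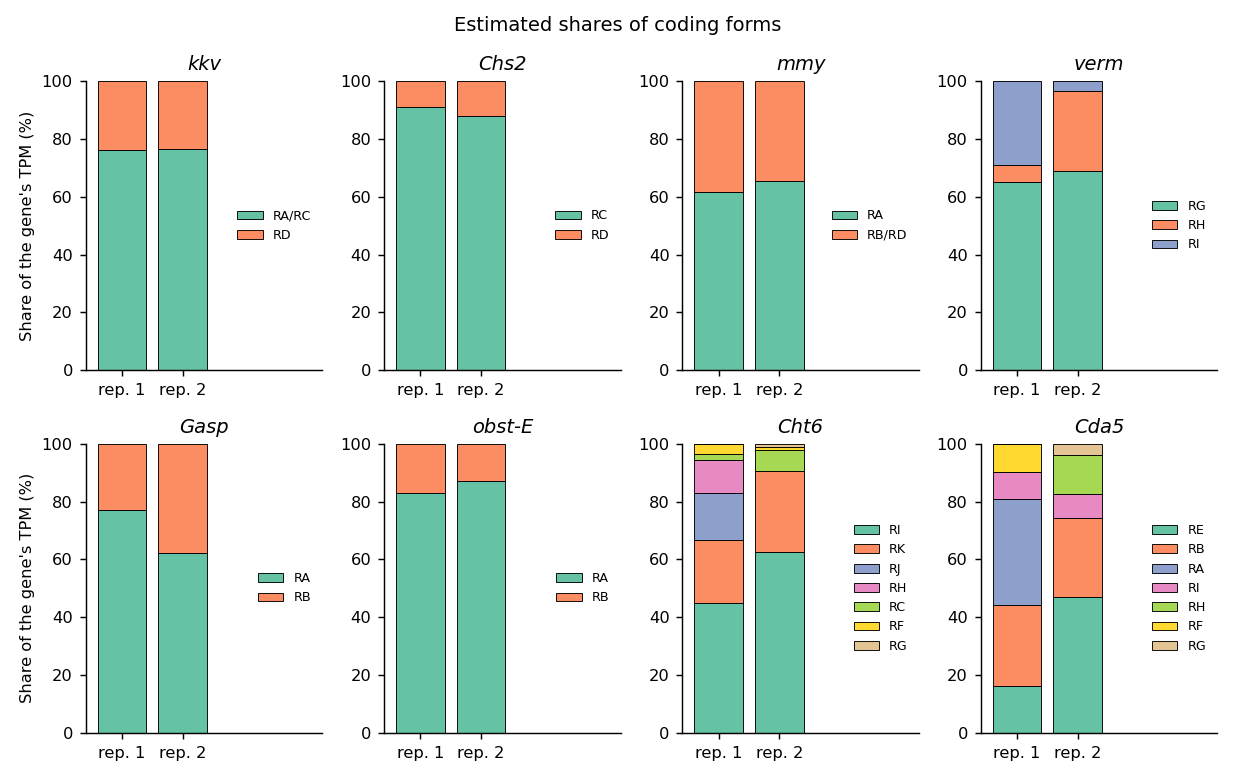
Estimated share of the gene's TPM (percent, from 0 to 100) taken by each coding form in replicates 1 and 2 for kkv, Chs2, mmy, verm, Gasp, obst-E, Cht6 and Cda5; transcripts with the same coding sequence share a colour and forms at 0 in both libraries are not drawn. The kkv forms are near equal in the libraries, while verm-RI takes 29.1% in replicate 1 and 3.54% in replicate 2.

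The chitinase group was led by Cht10 and was, gene by gene, mostly higher in replicate 1. Cht10 (2L, 22999574 to 23025915, minus strand), a very large enzyme with a coding length of 6858 bases whose counterpart is needed for moulting in the beetle Tribolium, stood at 115 TPM in replicate 1 and 73.6 TPM in replicate 2. Its ratio was 1.53 (1.51 to 1.56). This long gene had the most reads of the set in replicate 1, 28395, and 24001 in replicate 2, where Peritrophin-15a had 26000. Cht2 stood at 43.2 and 32.8 TPM in replicates 1 and 2, a ratio of 1.28 (1.21 to 1.36). An exon of Cht2 overlaps CG13921 on the other strand, which stood at 6.30 and 4.59 TPM, and whether reads were assigned by strand is not stated in the labels or headers.

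Cht5 was the chitinase that differed most. Cht5 (3R, 13767549 to 13770732, plus strand), whose counterpart in Tribolium also acts in moulting, stood at 42.9 TPM in replicate 1 and 14.2 TPM in replicate 2, from 2994 and 1309 reads. Its ratio was 2.96 (2.77 to 3.16), larger than that of 98.0% of the genes tested. Of the other chitinases, Cht11 stood at 16.0 and 9.38 TPM and Cht6 at 10.9 and 6.73 TPM in replicates 1 and 2. Cht4 stood at 23.7 and 15.2 TPM. Their log2 ratios were 0.74, 0.70 and 0.61, against 0.61 for Cht10. Cht9, Cht12 and Cht7 were closer, with log2 ratios of 0.12, 0.08 and 0.21.

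In all, 9 of the 10 chitinases had a log2 ratio above 0, with a median of 0.48, where the median of all 12206 genes tested was -0.02 and 47.1% of them were above 0. With scaling by library size alone, which moved the median of all genes by -0.19, the count above 0 was 7 of 10, and 9 of 10 were above the median of all genes under either scaling. The exception was Cht8, which had 6 reads in replicate 1 and 15 in replicate 2 and an interval for the ratio (0.165 to 1.41) that includes 1. The intervals of Cht9 (0.995 to 1.19) and Cht12 (0.932 to 1.19) also include 1.

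The chitinases of chromosome 2R form a run of neighbours with unequal levels. Cht8, Cht12, Cht4 and Cht9 lie between 21061646 and 21069286 with no other coding gene starting between them. The exons of Cht8 and Cht12 overlap on opposite strands. Cht8 stood at 0.130 TPM in replicate 1 (exact Poisson interval 0.0478 to 0.284) and 0.247 TPM in replicate 2 (0.138 to 0.407), while Cht12 stood at 8.61 ± 0.441 TPM, Cht4 at 19.4 ± 5.98 TPM and Cht9 at 24.5 ± 1.74 TPM. The mean level thus increased along the run from Cht8 to Cht9, but Cht4 and Cht9 did not differ beyond the spread of Cht4, which stood at 23.7 TPM beside 25.7 TPM for Cht9 in replicate 1 and at 15.2 TPM beside 23.3 TPM in replicate 2.

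The Idgf genes, named imaginal disc growth factors, encode secreted proteins that share the fold of chitinases but lack their catalytic activity. All 6 were detected, and 3 were among the 5 most abundant genes of the set. Idgf4 (X, 9927973 to 9930948, minus strand) was the highest, at 320.3 TPM in replicate 1 and 279.8 TPM in replicate 2. Idgf6 stood at 182 and 207 TPM and Idgf3 at 160.0 and 177 TPM. Idgf4 lay above Idgf6 and Idgf6 above Idgf3 in each library, the lower pair differing by little more than their SDs of 18.2 and 12.2 TPM. Idgf1 stood at 56.9 ± 2.14 TPM, and Idgf5 was lowest at 28.9 ± 5.27 TPM.

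Idgf1, Idgf2 and Idgf3 are adjacent on 2L (16445278 to 16455194, all plus strand), separated by 536 and 398 bases. Their mean levels were 56.9, 78.1 and 169 TPM in that order along the arm. The middle gene, Idgf2, differed from its neighbours: it stood at 102 TPM in replicate 1 and 54.4 TPM in replicate 2, a ratio of 1.84 (1.76 to 1.92). In contrast Idgf1 had a ratio of 1.035 (0.983 to 1.09) and Idgf3 of 0.886 (0.862 to 0.910). The order of Idgf1 and Idgf2 was thus clear in replicate 1 and near equal in replicate 2, at 55.4 and 54.4 TPM. As copies of one family, the Idgf genes may share some reads, which the estimated counts divide.

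The obstructor proteins carry chitin-binding domains. RefSeq lists obst-C as another name of Gasp and obst-D as another name of Peritrophin-A. obst-J was the most abundant on average, with 104 TPM in replicate 1 and 140.4 TPM in replicate 2. obst-A (X, 20239855 to 20243209, plus strand), which is needed for an intact larval cuticle, stood at 135 TPM in replicate 1 and 44.0 TPM in replicate 2, from 7355 and 3107 reads. Its ratio of 3.06 (2.94 to 3.20) was the largest of the 36 genes. Gasp, a protein of the tracheal lumen, stood at 84.7 and 92.2 TPM, so Gasp and obst-A had near-equal means, 88.5 ± 5.34 and 89.4 ± 64.1 TPM, with very unequal spread.

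Other obstructor genes mostly leaned towards replicate 2. obst-G stood at 31.6 TPM in replicate 1 and 55.2 TPM in replicate 2, a ratio of 0.564 (0.522 to 0.610), the lowest of the genes with over 100 reads. obst-I, obst-F, obst-J and obst-E had log2 ratios of -0.62, -0.56, -0.45 and -0.43, and all of these genes were higher in replicate 2. obst-B, at 28.1 and 24.5 TPM, and obst-H, at 12.1 and 10.9 TPM, were slightly higher in replicate 1, which turned round with scaling by library size alone. obst-F has an exon overlap with CG42833, which stood at 36.6 and 38.0 TPM. Over the 9 obstructor genes, 6 had log2 ratios below 0, with a median of -0.43, where 47.1% of all genes tested were above 0. With scaling by library size alone, which moved the median of all genes by -0.19, the count below 0 was 8. Under either scaling 3 of the 9 were above the median of all genes.

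In 3 obstructor genes more than one form held at least 10% of the reads in both libraries. obst-A was split between obst-A-RA, with 68.0% and 63.1% of its TPM in replicates 1 and 2, and obst-A-RB, which encode the same protein. The difference of obst-A between the libraries was seen in both: obst-A-RA stood at 91.6 and 27.8 TPM and obst-A-RB at 43.1 and 16.2 TPM. obst-E was mainly obst-E-RA, at 82.8% and 87.2%, and its forms differ in a large coding exon (692 bases in obst-E-RB, 671 in obst-E-RA). For Gasp, the 774-base coding form Gasp-RA took 77.1% and 62.3%, and the 705-base form Gasp-RB 22.9% and 37.7%.

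Peritrophin-15a and Peritrophin-15b encode very small chitin-binding proteins of the gut lining, with coding lengths of 276 bases and, for the main form of Peritrophin-15b, 279 bases. Both lie on 2L (8395665 to 8396096 and 8394446 to 8394940, minus strand), 724 bases apart. Peritrophin-15a stood at 1961 TPM in replicate 1 and 2648 TPM in replicate 2, above 99.5% of detected genes. Peritrophin-15b stood at 669 and 662 TPM. The ratio was 0.747 (0.732 to 0.762) for Peritrophin-15a and 1.02 (0.983 to 1.06) for Peritrophin-15b, so the neighbours differed in their ratios. Peritrophin-A, a gene next to obst-A on X with 1437 bases between them, stood at 18.1 and 24.2 TPM. Its ratio of 0.736 (0.670 to 0.808) ran opposite to that of obst-A.

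At least 2-fold differences between the libraries were found for 2 of the 36 genes (5.56%), Cht5 and obst-A, both higher in replicate 1. Across the 12206 genes that averaged 10 reads or more, 5.42% were at least 2-fold apart with an interval that excluded a ratio of 1, 4.10% higher in replicate 1 and 1.32% in replicate 2. At 2-fold the share among the chitin genes was thus near that of all genes. For 29 of the 36 (80.6%) the counting interval excluded 1, beside 53.6% of all genes tested. The median gene of the set averaged 2243.5 reads and that of all genes tested 715, and intervals narrow with reads, so nothing particular to the set is read from this share. The coefficient of variation beyond counting error, called biological in edgeR, was 25.3% over the whole group. It may be technical in part. Outside the quartiles of all genes (log2 ratios of -0.19 and 0.19) lay 24 of the 36, with 11 above the upper and 13 below the lower. The median log2 ratio of the set was 0.04, and its members lay on both sides, 19 above 0 and 17 below. All 36 passed the filter on reads. At a threshold of 1.5-fold, 10 of the 36 (27.8%) were apart, a larger share than the 12.2% of all genes. Of the 10, 8 were higher in replicate 1 and 2 in replicate 2, beside 958 and 532 of all genes. A call also needs an interval without 1, which narrows with reads, and the reason for the larger share was not tested.

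**Figure D4:**
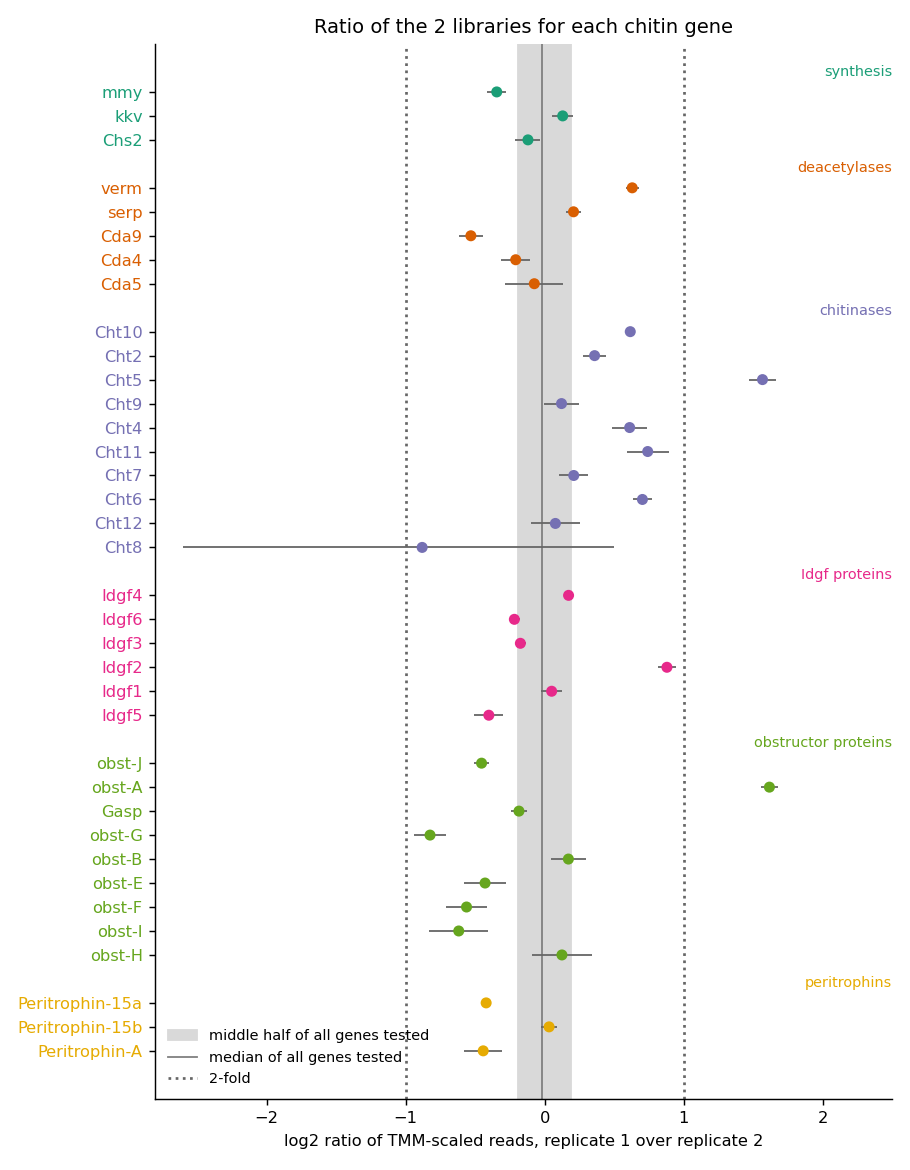
Log2 ratio of TMM-scaled reads, replicate 1 over replicate 2, for each chitin gene, with exact 95% counting intervals; the grey band runs between the quartiles of all genes tested (-0.19 to 0.19) and dotted lines mark 2-fold. Cht5 and obst-A lie beyond the right dotted line, and 9 of the 10 chitinases lie right of 0 (7 with scaling by library size alone).

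The rest of the chitin pathway was then read from lists of partner genes. The enzymes that supply UDP-N-acetylglucosamine ahead of mmy were all detected, with 0 of 6 at least 2-fold apart and a median log2 ratio of 0.10 (-0.09 with scaling by library size alone). Gnpnat, the acetyltransferase of the pathway, had levels of 85.8 TPM in replicate 1 and 95.7 TPM in replicate 2, and Pgi, which makes the fructose phosphate it starts from, had levels of 79.9 and 72.8 TPM. Gfat1, whose product takes the first committed step, stood at 60.5 and 56.0 TPM. Of the genes that help deposit chitin, 4 of 6 symbols were measured, with a median log2 ratio of 0.24 and none 2-fold apart. rtv, a membrane protein needed for chitin fibres to be laid in order, stood at 21.0 and 16.4 TPM, and reb, which is needed for chitin deposition, at 11.7 and 14.6 TPM. knk, which shields new chitin from chitinases, stood at 14.1 and 8.97 TPM. The 3 hexosaminidases, which split the short products of chitinases, had a median log2 ratio of 0.08 (-0.11 with scaling by library size alone) and none was 2-fold apart, with Hexo1 at 53.0 and 49.1 TPM and Hexo2 at 24.1 and 23.2 TPM.

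Mucin-like genes, whose products include components of the gut lining and other apical matrices, differed more widely. Of 19 genes measured, 10 were detected and 16 had enough reads. Of these 16, 3 were 2-fold or more higher in replicate 1 and 1 in replicate 2, beside 4.10% and 1.32% of all genes. Muc96D and Mur29B were the most abundant, at 464 and 750.1 TPM and at 653 and 410.4 TPM in replicates 1 and 2. Muc68E stood at 90.5 and 10.8 TPM, a ratio of 8.21 (7.89 to 8.55), and Muc68Ca at 11.8 and 31.7 TPM. Mur89F stood at 11.1 and 5.31 TPM, and Muc91C at 0.324 and 0.159 TPM, under the detection threshold.

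Markers of tissues that hold chitin were compared next, and none of the 13 gut digestion, 7 larval cuticle and 7 tracheal genes with enough reads was 2-fold apart. The gut digestion list summed to 24663 (replicate 1) and 35368 TPM (replicate 2), and 0 of its 13 genes had a log2 ratio above 0 (median -0.45). Its leading genes were Jon65Aiv, at 6165 and 8610 TPM, and Jon99Cii, at 4649 and 6244 TPM. Larval cuticle genes summed to 15071 and 24007 TPM, with a median log2 ratio of -0.50 and 5 of the 7 below 0, and were led by Lcp1 at 7360.2 and 11840.5 TPM and Lcp4 at 4740.2 and 8292 TPM. The tracheal list, in which 3 of 7 genes belong to the chitin set and which verm and Gasp lead, had a median of 0.57, with 5 of 7 above 0.

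Genes of the response to ecdysone, the steroid that triggers moulting, summed to 1577 (replicate 1) and 973 TPM (replicate 2). Their median log2 ratio was 0.51. Of the 18, 7 were 2-fold or more higher in replicate 1 and 0 in replicate 2, beside 4.10% and 1.32% of all genes. The most abundant were ImpE2, at 572 and 219 TPM, and br, at 233 and 148 TPM. The nuclear receptor genes Hr3, Hr4 and Eip78C stood at 8.25, 27.6 and 63.7 TPM in replicate 1 and at 0.901, 7.15 and 12.7 TPM in replicate 2. Eip93F, ImpE1 and ImpE3 stood at 11.0, 40.4 and 33.7 TPM in replicate 1 and at 1.74, 13.6 and 11.4 TPM in replicate 2.

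Of the lists for tissues with little chitin, the salivary gland list alone held genes 2-fold apart. Salivary gland genes summed to 47069 (replicate 1) and 93650 TPM (replicate 2) (median log2 ratio -0.90), led by Sgs7, at 29704 and 59128 TPM, and Sgs5, at 5338 and 9848 TPM. Past 2-fold were 2 of the 9, Sgs3 at 4639 and 9558 TPM and Sgs4 at 3021 and 7591 TPM. Sgs7, Sgs1 and Sgs5 lay just short of 2-fold, with ratios of 0.509, 0.516 and 0.537. Of the 9, 8 had log2 ratios below 0. With scaling by library size alone, which moved the median of all genes by -0.19, the list median was -1.08. Among all genes tested, 1.32% were 2-fold or more higher in replicate 2. The fat body list had 0 of 6 genes 2-fold apart and a median of 0.46, with 4 above 0 and 2 below (3 and 3 with scaling by library size alone). Its most abundant genes, Fbp2 at 9456 and 10117 TPM and Lsp2 at 8537 and 8555 TPM, were the 2 below 0, while Lsp1alpha, Fbp1, Lsp1gamma and Lsp1beta had log2 ratios of 0.95, 0.80, 0.77 and 0.16. Haemocyte genes had 0 of 6 that were 2-fold apart and a median of -0.28, with 5 below 0. The most abundant were He, at 57.2 and 78.3 TPM, and srp, at 33.9 and 27.8 TPM, which was the 1 gene above 0. The part of these values in the chitinase, obst-A and peritrophin ratios was not tested.

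**Figure D5:**
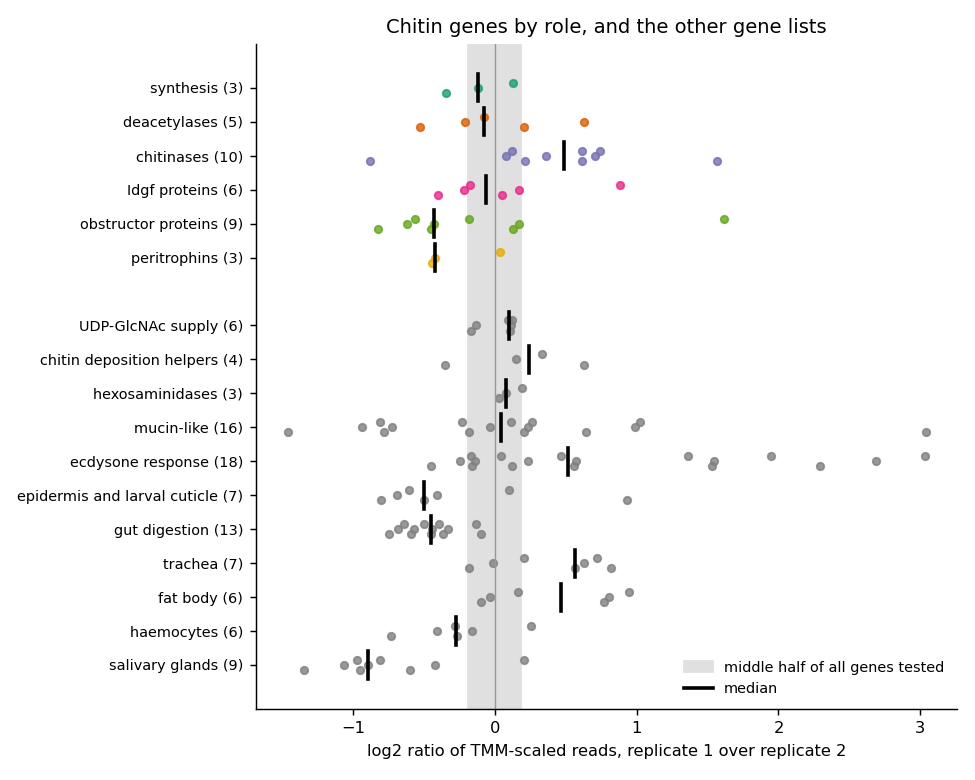
Log2 ratio of TMM-scaled reads, replicate 1 over replicate 2, of each gene with a mean of at least 10 reads, for the 6 roles of the chitin set (coloured) and 11 other lists (grey), with the list median as a black bar and the number of genes in brackets; the grey band runs between the quartiles of all genes tested. The chitinase, ecdysone response, trachea and fat body medians lie at 0.48, 0.51, 0.57 and 0.46. The gut digestion, larval cuticle and salivary gland medians lie at -0.45, -0.50 and -0.90. Of the 7 tracheal genes, 3 belong to the chitin set.

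Position and gene structure varied within the set. The 36 genes lie on 2L (10), 3L (10), 2R (7), X (6) and 3R (3). In 17 of them a single transcript was listed and 19 had several, 77 transcripts in all. Exon overlap with another annotated gene or transposable element was found for 9. Of these, 4 overlap antisense RNAs that were not analysed here, Idgf4 overlaps a transposable element, and Cht8 and Cht12 overlap each other. Coding lengths ran from 273 bases in Peritrophin-15b to 13833 bases in the longest form of Cht6. Cht6 had 7 listed transcripts with 7 different coding sequences. Its leading form Cht6-RI took 44.9% and 62.5% of the gene's TPM in replicates 1 and 2, Cht6-RK took 21.9% and 28.0%, and Cht6-RJ had 901 estimated reads in replicate 1 and 0 in replicate 2. In Cda5 the leading form was Cda5-RA in replicate 1, at 36.7%, and Cda5-RE in replicate 2, at 46.9%, while Cda5-RB took 27.8% and 27.4%. In Cht10, Cht10-RA took 85.0% and 83.1% and Cht10-RB 14.0% ± 1.41 (SD, n = 2), with the same coding sequence. Of 73 transcripts of the set that averaged 10 reads or more, 18 were at least 2-fold apart, 12 higher in replicate 1 and 6 in replicate 2, beside 19.4% of all transcripts.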

How the data were processed

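The authors deposited, per the file headers, transcript length, effective length, TPM and estimated counts for 30119 entries in each of 2 libraries of one group. The headers' column names are those of salmon, but no quantifier, genome build or annotation is given in the sources used here. The submitters' processing notes list STAR 2.5.2, HTSeq 0.6.1, bcl2fastq 2.18.0.12, Picard and FastQC, in unstated roles. FlyBase identifiers of 29992 entries matched the Ensembl 115 annotation of BDGP6, and 99.8% of these had equal lengths. The other 127, left out here, held 0.0981% of the reads in replicate 1 and 0.110% in replicate 2.

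Values were added up per gene, and the summed estimated counts rounded and scaled with TMM in edgeR 4.0.16 (R 4.3.3). Apart means 2-fold or more, in either direction, with an exact 95% Clopper-Pearson interval without 1, among genes averaging 10 reads or more. Log2 ratios had 0.5 reads added. TPM intervals are exact Poisson (SciPy 1.17.1). The ratio calls were run on simulated Poisson counts, which have counting error only. This checks the code and cannot check the calls under a wider spread. The labels mention no molecular identifiers, and intervals cover counting error only. With 1 group, no p-value is given. Named were all synthesis enzymes, deacetylases and Gasp, the 15 most abundant members, members at least 2-fold apart, and forms with 10% of the reads in both libraries or whose lead changed; of other lists, the 2 most abundant genes and those 2-fold apart. Other values of single genes and transcripts were added after they were seen. Members and lists were chosen with earlier results of these data known. Alternatives were DESeq2 1.42.0 size factors, library size, other filters and folds, single transcripts, CPM and each library alone.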

Additional observations from a re-analysis of the deposited data

How the results depend on the processing

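With 1 group of 2 libraries no effect of the allele can be computed, and depth limits Cht8, where 6 and 15 reads were found. No paired analysis was possible because all samples form 1 group, and ratios need both libraries. With each library alone the summed level ranged from 4550.4 to 5064 TPM, its share of TPM from 0.455% to 0.506%, and the detected genes stayed at 35. As CPM the sum was 3768, and as a share of reads 0.377% against 0.481% of TPM. Without rRNA entries the share of TPM was 0.504%, at 0.494% in replicate 1 and 0.514% in replicate 2. Chitin genes at least 2-fold apart were 2. At 1.5-fold they were 10 (27.8%, beside 12.2% of all genes), and at 4-fold 0 (beside 1.66% of all genes). As single transcripts they were 18 of 73 (24.7%, beside 19.4% of all transcripts). With library size alone they were 3 (8.33%, beside 5.49% of all genes), obst-G (ratio 0.496) being added. Over all genes the 662 became 383 at a mean of at least 100 reads, 1490 at 1.5-fold, 203 at 4-fold and 4598 of 23649 as single transcripts. With library size alone the split of all genes was 394 and 276 in place of 501 and 161, and the median log2 ratio of the chitin genes was -0.15, as that of all genes moved by -0.19. DESeq2 size factors gave 2 chitin genes apart and a median of 0.06. Cht5 and obst-A stood at 2.60 and 2.69 with library size alone and at 2.99 and 3.10 with DESeq2 size factors.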
